A study of Mus musculus with 30 samples.

Results

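The collagen and laminin genes were followed by RNA sequencing as cultured mouse embryonic stem cells (ESC) gave rise to blood progenitors. Members were the genes of the deposited expression table whose symbol names a collagen alpha chain or a laminin alpha, beta or gamma chain, which gave 41 of 14685 genes: 33 collagen genes and 8 laminin genes. The samples came from the E14 mouse ESC line and covered 5 cell populations. ESC were grown on a layer of embryonic fibroblast feeder cells and taken off it before differentiation, and Flk1+ cells, which include the hemangioblast, were selected with antibody-coated magnetic beads from embryoid bodies. The other populations were sorted from blast cultures of the Flk1+ cells: HE1 was the first hemogenic endothelium (KIT+ Tie2+ CD41-), HE2 the later hemogenic endothelium that had gained CD41, and progenitors were KIT+ CD41+ cells that had lost Tie2. Each population was measured in E14 WT cells, in Sp1ΔDBD/ΔDBD cells, in which both copies of Sp1 lack the DNA-binding domain and a truncated protein remains, and in Sp3-/- cells, a full knockout of Sp3. Each of the 15 groups held 2 biological replicates, 30 samples in all. The mutant cells were established ESC lines, so the effect of a mutation and any other difference between lines cannot be told apart. Sp1 and Sp3 are related transcription factors that bind the same GC-rich motif, and the comparisons ask how the matrix genes behaved when either factor was impaired.

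Collagens and laminins are the structural proteins of the extracellular matrix. Collagen IV chains and laminin trimers, each of 1 alpha, 1 beta and 1 gamma chain, form the networks of the basement membrane under endothelium and epithelium, and collagen XVIII is a basement membrane proteoglycan whose C-terminal fragment is endostatin. Fibrillar collagens (types I, II, III, V, XI, XXIV and XXVII) build fibres made mainly by mesenchymal cells, FACIT collagens sit on the surface of fibres, and transmembrane collagens (XIII, XXIII and XXV) are held in the cell membrane. Endothelial cells make a collagen IV and laminin basement membrane, and a cell that leaves the vessel wall as a blood cell leaves that layer behind.

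Because Sp1 and Sp3 recognise GC boxes, the promoters of the members were read for the 6-letter core GGGCGG, on either strand (CCGCCC on the other). RefSeq promoter windows (GRCm38.p6) running from 250 bases before to 50 bases after the start were found for 30 of 41 members, and 21 of these 30 genes (70.0%) held at least 1 box, against 38.2% of the 27025 genes in the promoter table and 66.8% of the 11139 genes that are also in the expression table. A match describes the letters in the window, not binding. The windows below belong to the 3 most abundant members and to Lamb1 and Col23a1, which moved in both mutants; capitals mark the boxes.
Col4a1: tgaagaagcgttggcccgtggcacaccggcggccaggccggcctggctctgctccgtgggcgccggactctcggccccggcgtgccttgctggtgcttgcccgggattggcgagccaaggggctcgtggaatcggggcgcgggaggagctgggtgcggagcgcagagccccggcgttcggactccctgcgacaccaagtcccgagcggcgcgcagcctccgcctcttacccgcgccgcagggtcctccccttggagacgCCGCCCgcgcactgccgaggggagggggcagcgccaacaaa
Col4a2: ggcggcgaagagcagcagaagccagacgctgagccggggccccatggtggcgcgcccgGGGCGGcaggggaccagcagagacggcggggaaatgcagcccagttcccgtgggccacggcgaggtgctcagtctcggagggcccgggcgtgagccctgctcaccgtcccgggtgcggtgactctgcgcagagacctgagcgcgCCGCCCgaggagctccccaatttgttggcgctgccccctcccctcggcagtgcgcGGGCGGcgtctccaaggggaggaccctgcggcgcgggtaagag
Col18a1: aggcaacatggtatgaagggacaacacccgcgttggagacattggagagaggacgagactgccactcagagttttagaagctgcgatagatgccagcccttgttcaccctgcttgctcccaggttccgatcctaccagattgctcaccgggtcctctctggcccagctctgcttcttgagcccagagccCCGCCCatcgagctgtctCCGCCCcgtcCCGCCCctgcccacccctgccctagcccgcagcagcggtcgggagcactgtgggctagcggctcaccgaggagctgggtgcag
Lamb1: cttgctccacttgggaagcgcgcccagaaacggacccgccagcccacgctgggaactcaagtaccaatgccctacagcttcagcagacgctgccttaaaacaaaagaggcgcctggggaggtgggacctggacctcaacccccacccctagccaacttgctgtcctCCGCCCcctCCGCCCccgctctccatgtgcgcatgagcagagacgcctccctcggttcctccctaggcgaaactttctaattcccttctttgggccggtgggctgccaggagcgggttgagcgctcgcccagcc
Col23a1: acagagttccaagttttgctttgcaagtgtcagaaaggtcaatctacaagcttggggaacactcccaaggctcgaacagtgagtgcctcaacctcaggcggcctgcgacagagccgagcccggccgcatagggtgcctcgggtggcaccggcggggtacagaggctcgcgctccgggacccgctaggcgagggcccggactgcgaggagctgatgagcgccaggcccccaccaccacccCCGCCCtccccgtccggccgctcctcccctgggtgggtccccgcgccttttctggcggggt
The Col4a1 window (chr8:11312777-11313076, minus strand) held 1 box and the Col4a2 window (chr8:11312555-11312854, plus strand) held 3. These genes lie head to head, with starts 21 bases apart, and the windows share 78 bases. The Col4a1 box and 1 of the 3 Col4a2 boxes are the same site within these bases, read on opposite strands and counted in both windows. Col18a1 has 2 windows in the promoter table: the one printed (chr10:77166481-77166780, minus strand) held 3 boxes and the other (chr10:77113656-77113955, minus strand) held 0. Which start these cells use was not tested. A gene with several windows was counted as holding a box if any of them did. The Lamb1 window (chr12:31265043-31265342, plus strand) held 2 boxes and the Col23a1 window (chr11:51289670-51289969, plus strand) 1. Col4a5 and Col4a6 are also a head-to-head pair, with starts 1343 bases apart.

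The targeted genes were checked first. Sp3 lay between 3.38 and 7.79 FPKM (fragments per kilobase of transcript, scaled to the total fragments of the sample) in the 10 Sp3-/- samples and between 25.9 and 58.1 in the 10 WT samples. Sp1 lay between 14.8 and 40.5 FPKM in the Sp1ΔDBD/ΔDBD samples and between 24.9 and 52.4 in WT, and since only the DNA-binding domain is deleted this level does not check the label. Marker sums were read for ESC and HE1. The summed level of 5 pluripotency genes was between 1086 and 1331 FPKM in ESC and at most 97.6 elsewhere. That of 6 hemogenic endothelium genes was highest in HE1, at 978 to 1471. Of these, Kdr, Tek, Cdh5 and Pecam1 had their highest WT values in HE1. Kit was higher in WT HE2 (36.9 and 58.5 against 16.9 and 26.8 in HE1) and Tal1 in WT progenitors (84.7 and 93.8 against 24.8 and 29.3). Itga2b, which encodes CD41, was at 34.8 and 49.2 FPKM in WT HE1, 83.3 and 81.8 in Sp3-/- HE1 and 84.6 and 147 in WT HE2. In the replicate 1 libraries of WT and Sp1ΔDBD/ΔDBD HE1, HE2 and progenitors, 4 smooth muscle genes (Acta2, Tagln, Cnn1 and Myh11) were higher than in replicate 2: 1673 against 343 FPKM in WT HE1 and 976 against 244 in Sp1ΔDBD/ΔDBD HE1, with 189 and 113 in Sp3-/- HE1. These 6 libraries were therefore also left out as an alternative added after the data were seen. Read depth is unknown for these values.

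In WT cells, the summed level of the members peaked in HE1, mostly through 3 genes, while many single members peaked elsewhere. Of 41 members, 19 had their highest WT mean in HE1, 11 in Flk1+ cells, 8 in ESC, 2 in progenitors and 1 in HE2, and for 29 members the peak fell in the same population in all 3 genotypes. The share of all genes that peaks in each population is not given here. The summed mean level of the 41 members was 237 FPKM in WT ESC, 278 in Flk1+ cells, 2104 in HE1, 934 in HE2 and 302 in progenitors. In WT HE1, 79.3% of this sum came from Col4a1, Col4a2 and Col18a1, and in WT ESC 35.4%. By highest group mean, 17 members reached 10 FPKM and 15 stayed under 3.

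**Figure D1:**
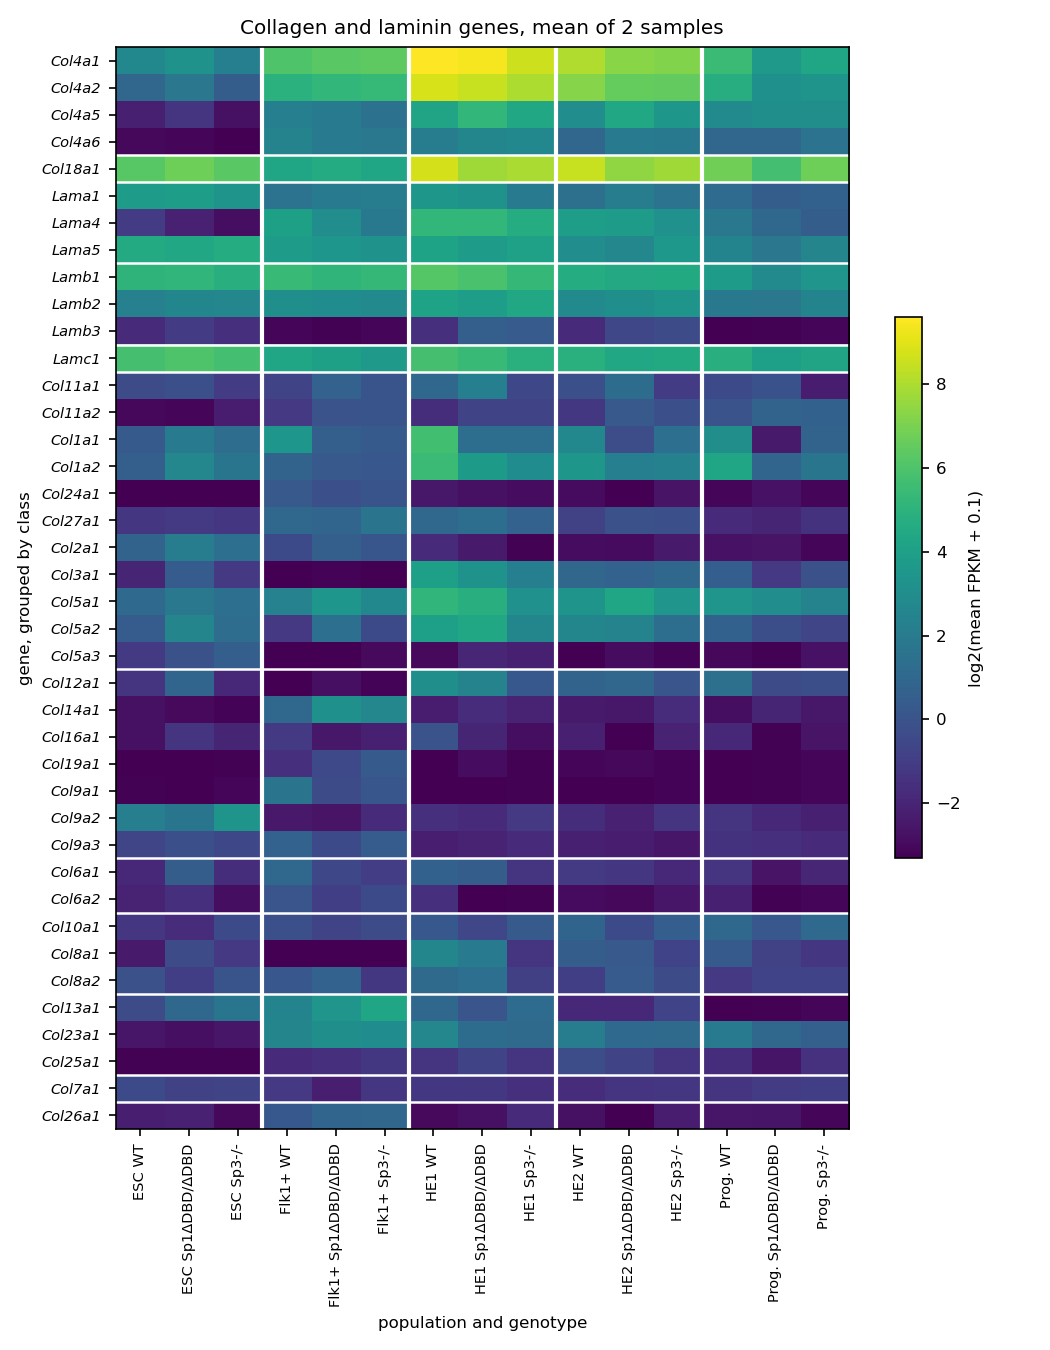
Mean level (colour, log2 of the mean FPKM of 2 replicates plus 0.1) of 40 of the 41 collagen and laminin genes, in rows by class, in the 15 groups, in columns by population and genotype. The 3 brightest cells are all in HE1: Col4a1 in WT and Sp1ΔDBD/ΔDBD cells and Col4a2 in WT, with means of 775, 691 and 457 FPKM.

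Each WT step was tested with limma on log2(FPKM + 0.1), in one fit of all 15 groups, and a gene was called at a Benjamini-Hochberg adjusted p under 0.05 over all 14525 genes tested. The fit took the HE1, HE2 and progenitor samples as independent. They were sorted from blast cultures, and same-numbered WT and Sp1ΔDBD/ΔDBD samples deviated together, as given in the section on processing. One member, Col7a1 (anchoring fibrils), never reached 1 FPKM and was not tested. From ESC to Flk1+ cells, 21 of 40 members rose, where 27.4% of all genes rose, and 8 fell, where 24.7% of all genes fell. From Flk1+ cells to HE1, 18 rose (all genes 23.5%) and 9 fell (29.5%). From HE1 to HE2, 15 fell (10.2%) and 0 rose (11.7%), and from HE2 to progenitors 6 fell (7.78%) and 0 rose (5.46%). By unadjusted p under 0.05, 18 and 12 members moved in these last 2 steps in either direction. The share of all genes under this p is not given here. The median log2 change of the 40 members was 1.39, 0.80, -1.17 and -0.18 over the 4 steps, against -0.08 to 0.05 for all genes. Fold changes on this scale understate those of genes near 0.1 FPKM, and in bulk samples fewer cells of a type and less RNA per cell cannot be told apart.

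The major collagen IV chains showed the largest range. Col4a1 (ENSMUSG00000031502, chr8:11198423-11312826, mm10) and Col4a2 (chr8:11312805-11449287) encode the α1 and α2 chains of the ubiquitous α1α1α2 trimer. In WT cells, Col4a1 had 6.54 and 6.49 FPKM in ESC, 67.2 and 63.97 in Flk1+ cells, 700.0 and 850.2 in HE1, then 224 and 305 in HE2 and 51.8 and 36.8 in progenitors. WT Col4a2 followed it, with 2.13 and 1.51 FPKM in ESC, 30.9 and 30.2 in Flk1+ cells, 455 and 459 in HE1, then 146 and 158 in HE2 and 32.6 and 20.6 in progenitors. Both rose at the first 2 steps (log2 changes 3.31 and 3.55 for Col4a1, 4.02 and 3.90 for Col4a2) and fell at the next 2 (-1.56 and -2.58 for Col4a1, -1.59 and -2.55 for Col4a2). Over the 6 samples of a population, whatever the genotype, the Col4a1 to Col4a2 ratio of FPKM values lay between 2.70 and 4.29 in ESC, 2.03 and 2.18 in Flk1+ cells, 1.49 and 1.91 in HE1, then 1.43 and 1.93 in HE2 and 1.28 and 1.97 in progenitors.

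By group mean, Col18a1 was the most abundant member in ESC, HE2 and progenitors. In WT cells, Col18a1 had 78.2 and 73.4 FPKM in ESC, 18.97 and 21.4 in Flk1+ cells, 358 and 517 in HE1, then 280.1 and 459 in HE2 and 101 and 121 in progenitors. It fell on leaving ESC (log2 change -1.90), rose into HE1 (4.41) and fell again only from HE2 to progenitors (-1.69), since the HE1 and HE2 replicates overlapped. Col4a5, which encodes a chain of the α5-containing trimers, had 0.186 and 0.0461 FPKM in ESC, 4.37 and 5.004 in Flk1+ cells, 12.7 and 23.9 in HE1, then 6.37 and 9.604 in HE2 and 4.86 and 8.895 in progenitors. The WT samples of Col4a5 were near 0 in ESC and highest in HE1, and progenitors overlapped HE2. Its neighbour Col4a6 rose from ESC to Flk1+ cells by 5.49 on the log2 scale and stayed between 1.202 and 5.87 FPKM in the WT samples from there on.

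Among the laminins, Lama4 rose from ESC to Flk1+ cells while Lama1, Lama5 and Lamc1 fell. Lama4 encodes the α4 chain of endothelial laminins, and in WT cells had 0.466 and 0.304 FPKM in ESC, 13.8 and 18.4 in Flk1+ cells, 33.4 and 41.01 in HE1, then 15.9 and 14.7 in HE2 and 3.73 and 3.303 in progenitors. Lama5, the α5 chain that is found in both epithelial and endothelial basement membranes, had 23.6 and 23.8 FPKM in ESC, 13.03 and 14.3 in Flk1+ cells, 17.2 and 18.9 in HE1, then 7.54 and 8.55 in HE2 and 5.72 and 5.35 in progenitors. Lama1, the α1 chain of the earliest embryonic laminin, had 15.01 and 13.4 FPKM in ESC, 3.38 and 2.48 in Flk1+ cells, 16.5 and 6.29 in HE1, then 3.31 and 1.95 in HE2 and 3.51 and 0.939 in progenitors. Thus WT Lama4 passed from the lowest of these chains in ESC to the highest in HE1, Lama5 fell from ESC to Flk1+ cells (log2 change -0.79) and from HE1 to HE2 (-1.16), and the 2 WT HE1 samples of Lama1 differed by over 2-fold. Of the partner chains, Lamb1 had 37.1 and 31.2 FPKM in ESC, 43.7 and 41.3 in Flk1+ cells, 80.8 and 66.3 in HE1, then 30.5 and 21.4 in HE2 and 17.3 and 9.98 in progenitors. Lamc1, the γ1 chain shared by most laminins, had 53.6 and 57.03 FPKM in ESC, 19.8 and 20.6 in Flk1+ cells, 62.8 and 47.6 in HE1, then 31.04 and 28.7 in HE2 and 30.9 and 24.4 in progenitors. Lamb2 had 5.46 and 4.22 FPKM in ESC, 7.52 and 9.62 in Flk1+ cells, 17.5 and 18.7 in HE1, then 5.83 and 8.39 in HE2 and 2.93 and 4.24 in progenitors. All 3 of these chains rose into HE1 (log2 changes 0.78, 1.43 and 1.08) and fell into HE2 (-1.52, -0.87 and -1.36). Lamb3, a beta chain of epithelial laminin, reached at most 0.341 FPKM in the WT samples.

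**Figure D2:**
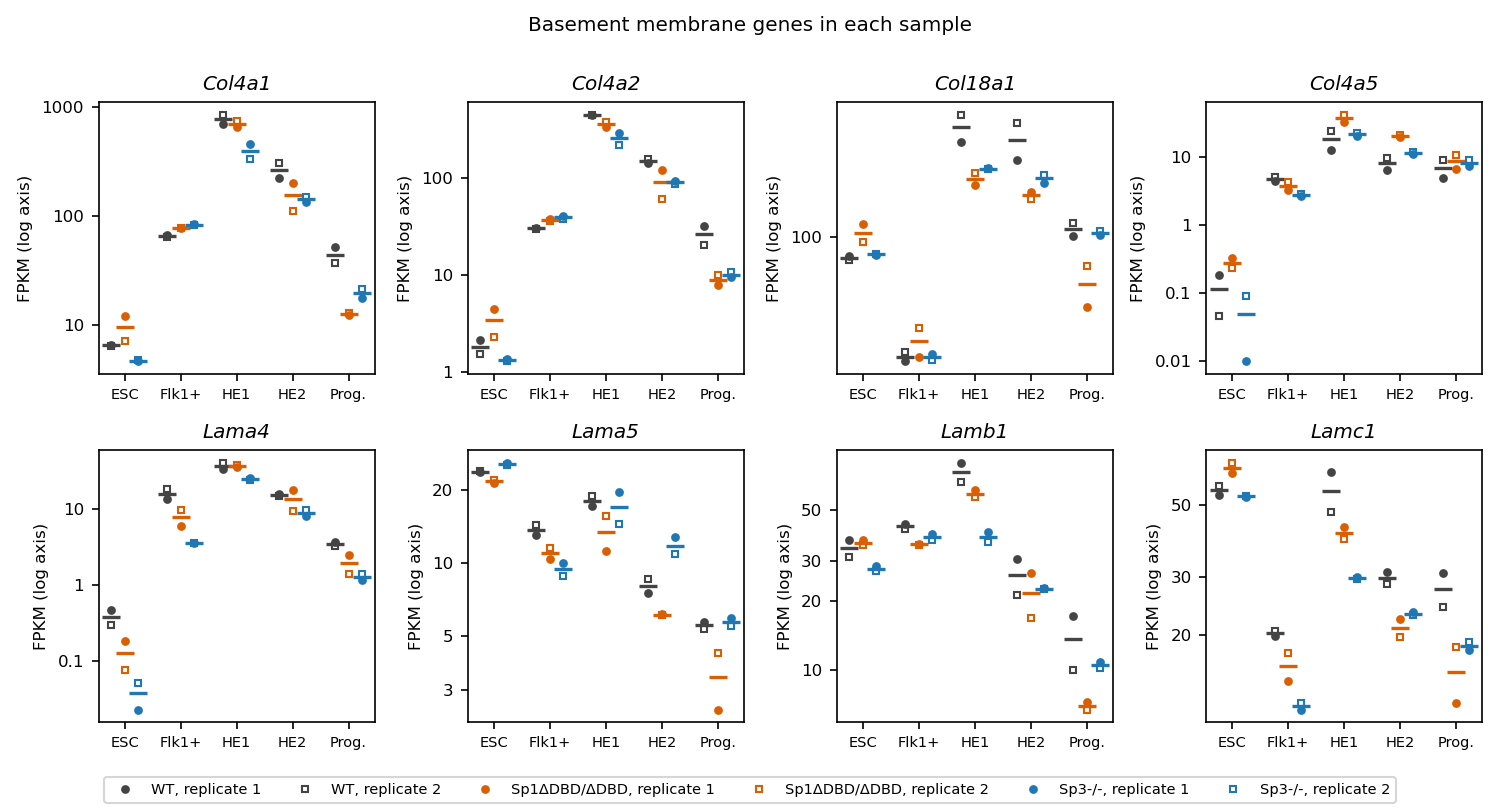
FPKM (log axis) of 8 basement membrane genes in each of the 30 samples, by population (Prog., progenitors) and genotype; circles are replicate 1, squares replicate 2 and bars group means. Col4a1 and Col4a2 climb from ESC to HE1 and decline to progenitors in every genotype, with Sp3-/- samples below WT in HE1 and both mutants below WT in progenitors.

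The fibrillar chains were led by types I, III and V, in HE1. Col1a1 had 1.57 and 0.766 FPKM in ESC, 8.65 and 13.6 in Flk1+ cells, 94.98 and 6.08 in HE1, then 11.9 and 0.938 in HE2 and 15.7 and 0.785 in progenitors in WT cells. Col1a2 had 1.18 and 1.598 FPKM in ESC, 1.57 and 1.75 in Flk1+ cells, 78.3 and 11.1 in HE1, then 17.1 and 5.68 in HE2 and 24.3 and 13.7 in progenitors. Col3a1 had 0.279 and 0.0285 FPKM in ESC, 0 and 0 in Flk1+ cells, 19.4 and 11.6 in HE1, then 2.55 and 1.04 in HE2 and 2.59 and 0.159 in progenitors. The 2 WT replicates of Col1a1 and Col1a2 lay over 2-fold apart in HE1, and Col3a1, listed at 0 in both WT Flk1+ samples, was the member with the largest fitted rise into HE1 (log2 change 7.24). Col5a1 had 2.64 and 1.45 FPKM in ESC, 5.43 and 5.14 in Flk1+ cells, 55.95 and 15.3 in HE1, then 13.5 and 6.74 in HE2 and 14.9 and 6.62 in progenitors. Col5a2 had 1.24 and 1.23 FPKM in ESC, 0.489 and 0.196 in Flk1+ cells, 15.4 and 15.9 in HE1, then 6.35 and 5.58 in HE2 and 2.201 and 0.828 in progenitors. Both type V chains rose from Flk1+ cells to HE1 (2.45 and 5.24). Of the other fibrillar members, Col2a1, Col5a3, Col11a1, Col11a2, Col24a1 and Col27a1, no group mean was above 4.61 FPKM.

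Among the collagens of lower level, Col9a1, Col13a1 and Col14a1 were highest in Flk1+ cells in WT, and Col23a1 was not. Col13a1, a transmembrane collagen of cell contacts, had 0.6705 and 0.681 FPKM in ESC, 6.37 and 4.895 in Flk1+ cells, 0.6503 and 3.33 in HE1, then 0.0541 and 0.295 in HE2 and 0.000598 and 0.000832 in progenitors. Col23a1, another transmembrane collagen, had 0.111 and 0.02995 FPKM in ESC, 6.43 and 5.26 in Flk1+ cells, 5.15 and 7.36 in HE1, then 4.01 and 4.597 in HE2 and 4.33 and 3.36 in progenitors. Col14a1, a FACIT collagen, had 0.0237 and 0.0797 FPKM in ESC, 2.55 and 1.37 in Flk1+ cells, 0.113 and 0.0762 in HE1, then 0.0992 and 0.08505 in HE2 and 0.0315 and 0.0486 in progenitors. The WT Flk1+ samples of Col13a1 and Col14a1 were above every other WT sample of these genes, whereas Col23a1 stayed above 3 FPKM from Flk1+ cells to progenitors. Col9a1 was at 2.95 and 3.04 FPKM in WT Flk1+ cells and at most 0.00968 elsewhere in WT, while Col9a2, a second chain of the same type IX trimer, had 4.77 and 4.24 FPKM in ESC, 0.0498 and 0.119 in Flk1+ cells, 0.3404 and 0.132 in HE1, then 0.275 and 0.163 in HE2 and 0.383 and 0.206 in progenitors and so was highest in ESC. The remaining members stayed at or under a group mean of 8.59 FPKM (Col12a1 in WT HE1).

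Part of the fibrillar signal differed between the replicates of HE1. Among the 26 members with a WT HE1 mean of at least 1 FPKM, 9 were over 2-fold higher in replicate 1 (among them Col1a1, Col1a2, Col5a1, Col6a1, Col8a1, Col8a2, Col12a1 and Lama1) and 2 in replicate 2, where 3.28% and 1.75% of all such genes were. In Sp1ΔDBD/ΔDBD HE1, 9 of 25 were higher in replicate 1 (3.90% of genes), and in Sp3-/- HE1 0 of 22 (0.953%). The same libraries differed in Krt8, Krt18, Cdh1 and Epcam, an epithelial set whose sum was 711 against 63.0 FPKM in WT HE1 and 223 against 9.12 in Sp1ΔDBD/ΔDBD HE1, nearly all from Krt8 and Krt18, with Epcam at most 0.448. Of the fibroblast set, 3 of 7 genes were in the table, and Postn (periostin) gave nearly all of a sum of 91.2 against 8.40 in WT HE1 and 85.5 against 4.67 in Sp1ΔDBD/ΔDBD HE1. The part that these cells or states had in the collagen values was not tested. Col4a1 went the other way, at 700.0 and 850.2 FPKM.

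**Figure D3:**
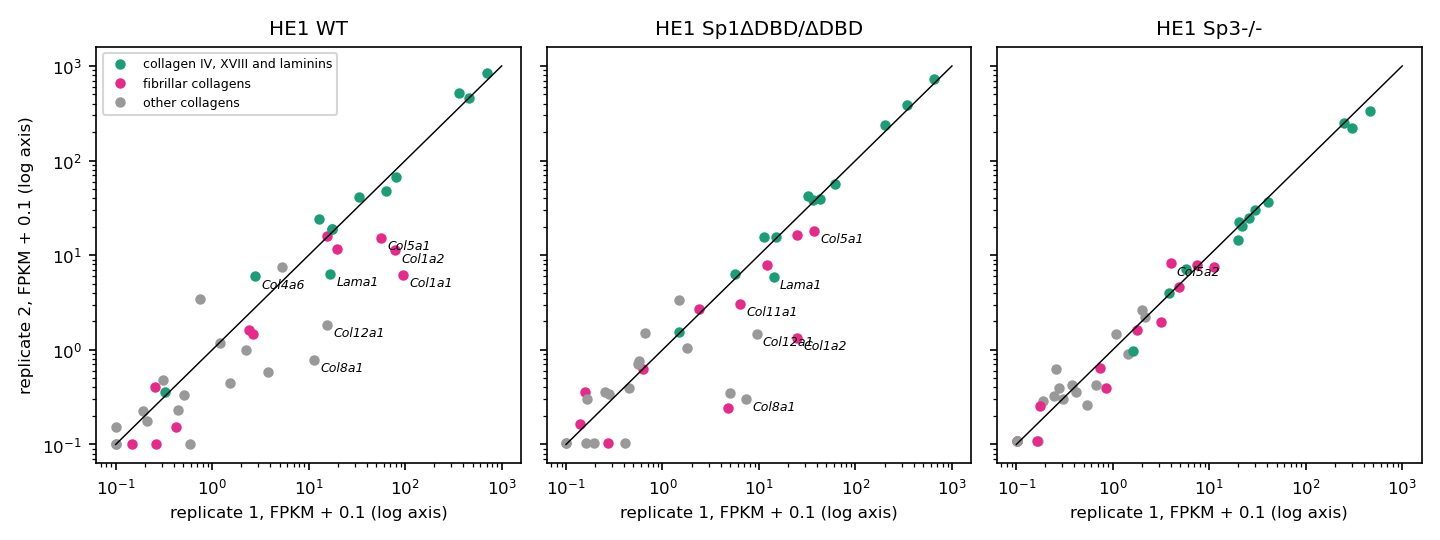
FPKM of 40 of the 41 collagen and laminin genes in replicate 1 (horizontal) against replicate 2 (vertical) of HE1, both log axes after adding 0.1, for WT, Sp1ΔDBD/ΔDBD and Sp3-/-; the line marks equal values. Fibrillar chains such as Col1a1 (94.98 and 6.08 FPKM in WT) lie below the line in WT and Sp1ΔDBD/ΔDBD, and Col4a1, Col4a2 and Col18a1 lie near it in all 3.

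Against WT, the mutants gave 43 calls over 20 of the 40 members, 32 lower and 11 higher. The shares of all genes called are given with each comparison below. Where the higher of the groups averaged over 3 FPKM there were 29 calls over 12 members, 25 lower and 4 higher. In Sp1ΔDBD/ΔDBD cells, 0 members rose and 1 fell in ESC, where 2.8% and 3.26% of all genes rose and fell. In Flk1+ cells 2 rose and 1 fell (2.92% and 2.62%), in HE1 1 rose and 2 fell (5.69% and 4.35%), in HE2 2 rose and 3 fell (4.7% and 4.97%), and in progenitors 0 rose and 6 fell (3.75% and 5.04%). By unadjusted p under 0.05, 11, 9, 11, 11 and 12 members moved from ESC to progenitors, in either direction. The share of all genes under this p is not given here, so these counts have no background beside them. The median log2 change of the 40 members in progenitors was -0.72, against 0.05 for all genes, and between -0.23 and 0.34 in the other populations.

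In Sp3-/- cells, 2 members rose and 1 fell in ESC, where 5.4% and 5.91% of all genes did. In Flk1+ cells 2 rose and 4 fell (6.69% and 5.94%), in HE1 1 rose and 7 fell (6.02% and 4.87%), in HE2 1 rose and 1 fell (6.97% and 6.84%), and in progenitors 0 rose and 6 fell (3.88% and 4.77%). By unadjusted p under 0.05, 3, 9, 17, 12 and 10 members moved from ESC to progenitors, again without the share of all genes beside them. The member median was 0.08 in ESC, 0.00 in Flk1+ cells, -0.80 in HE1, 0.08 in HE2 and -0.33 in progenitors, against -0.02 to 0.05 for all genes. The sum of 6 progenitor genes was higher in Sp3-/- HE1, at 118 and 111 FPKM against 57.7 and 78.5 in WT. Most of it was Itga2b (CD41), at 83.3 and 81.8 against 34.8 and 49.2. Gfi1b was at 4.73 and 5.24 against 0.756 and 0.9002, and Runx1 at 5.82 and 4.72 against 4.66 and 1.33. The Sp3-/- HE1 samples of Kit, Gata1 and Spi1 overlapped WT. The sum of 6 hemogenic endothelium genes was 978 and 993 against 991 and 1396. Their part in the member changes was not tested. In both mutants, 11 pairs of a member and a population were called in the same direction. The same WT samples served the Sp1 and Sp3 comparisons, so the 2 sets of calls are not independent. The share of all genes called in both is not given here. With 2 samples a group, an exact permutation test of a single gene cannot go below p = 0.333, so these calls rest on the spread shared over all groups: fitted on the samples of 1 population at a time, 6 of the 29 calls above 3 FPKM remained. Where a call was lost without 1 sample, that sample is named below with the log2 fold change and the limma adjusted p that were left without it, in parentheses.

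**Figure D4:**
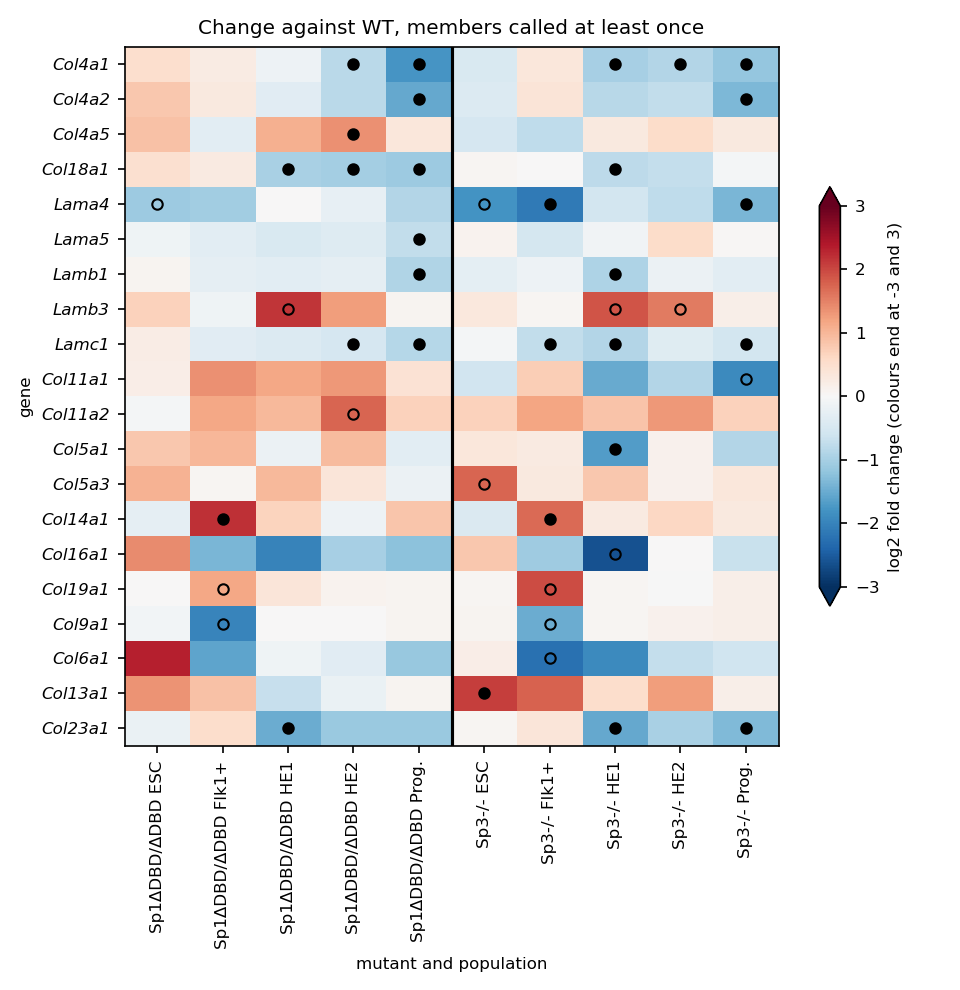
Log2 fold change against WT (limma estimate, colour, red higher and blue lower) of the 20 collagen and laminin genes called at least once, in rows, for each mutant and population, in columns. Filled dots mark calls where the higher of the groups averaged over 3 FPKM and open dots the other calls; every filled dot in progenitors is on a lower value.

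The type IV chains Col4a1 and Col4a2 fell in progenitors of both mutants. Col4a1 in Sp1ΔDBD/ΔDBD cells had 12.2 and 7.13 FPKM in ESC, 78.1 and 78.1 in Flk1+ cells, 648 and 735 in HE1, then 202 and 112 in HE2 and 12.4 and 12.8 in progenitors. Col4a1 in Sp3-/- cells had 4.64 and 4.81 FPKM in ESC, 83.8 and 83.1 in Flk1+ cells, 459 and 331 in HE1, then 136 and 151 in HE2 and 17.7 and 21.3 in progenitors. All 4 mutant progenitor samples were under the lower WT sample of 36.8 FPKM, and the 2 Sp3-/- HE1 samples were under both WT samples of 700.0 and 850.2. Col4a1 fell in Sp1ΔDBD/ΔDBD progenitors with a log2 fold change of -1.78 (SE 0.249, adjusted p = 0.000176) and in HE2 with -0.80 (SE 0.249, adjusted p = 0.0488). In Sp3-/- cells it fell in HE1 with a log2 fold change of -0.99 (SE 0.249, adjusted p = 0.0158), in HE2 with -0.87 (SE 0.249, adjusted p = 0.0258) and in progenitors with -1.16 (SE 0.249, adjusted p = 0.00692). The fall in Sp1ΔDBD/ΔDBD progenitors held without any 1 of its 4 samples (adjusted p at most 0.00617), in that population fitted alone (0.0390) and without the 6 libraries high in smooth muscle genes (0.00742). Among the 4 others, the Sp1ΔDBD/ΔDBD HE2 call was lost without WT replicate 1 (-1.02, 0.0589), WT replicate 2 (-0.57, 0.271) or Sp1ΔDBD/ΔDBD replicate 2 (-0.37, 0.5399). The Sp3-/- calls were lost in HE1 without WT replicate 2 (-0.84, 0.101) or Sp3-/- replicate 2 (-0.75, 0.193), in HE2 without WT replicate 2 (-0.65, 0.163), Sp3-/- replicate 1 (-0.80, 0.129) or Sp3-/- replicate 2 (-0.95, 0.09197) and in progenitors without WT replicate 1 (-0.92, 0.0809) or Sp3-/- replicate 1 (-1.03, 0.0808).

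Col4a2 gave the same picture in progenitors. Col4a2 in Sp1ΔDBD/ΔDBD cells had 4.504 and 2.31 FPKM in ESC, 37.9 and 36.7 in Flk1+ cells, 344 and 386 in HE1, then 122 and 61.5 in HE2 and 7.95 and 10.04 in progenitors. Col4a2 in Sp3-/- cells had 1.36 and 1.28 FPKM in ESC, 41.3 and 38.4 in Flk1+ cells, 299 and 222 in HE1, then 94.98 and 87.9 in HE2 and 9.48 and 10.8 in progenitors. Every mutant progenitor sample was at or under 10.8 FPKM, against 32.6 and 20.6 in WT. The progenitor changes were -1.53 (SE 0.285, adjusted p = 0.00217) in Sp1ΔDBD/ΔDBD and -1.35 (SE 0.285, adjusted p = 0.00666) in Sp3-/-. The first held without any 1 of its 4 samples (adjusted p at most 0.0442) but not without the 6 libraries (log2 fold change -1.03, adjusted p = 0.0883); the second was lost without WT replicate 1 (-1.02, 0.0835) or Sp3-/- replicate 1 (-1.25, 0.0654). In HE1 and HE2, Col4a2 was under WT in all mutant samples but not called, with log2 fold changes between -0.83 and -0.33 and adjusted p between 0.0687 and 0.543.

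The minor chain Col4a5 moved in the other direction in Sp1ΔDBD/ΔDBD HE2. Col4a5 in Sp1ΔDBD/ΔDBD cells had 0.331 and 0.229 FPKM in ESC, 3.28 and 4.21 in Flk1+ cells, 32.4 and 41.7 in HE1, then 19.8 and 21.04 in HE2 and 6.71 and 10.5 in progenitors. Col4a5 in Sp3-/- cells had 0.00989 and 0.0896 FPKM in ESC, 2.63 and 2.82 in Flk1+ cells, 20.5 and 22.3 in HE1, then 10.96 and 11.8 in HE2 and 7.27 and 8.98 in progenitors. Both Sp1ΔDBD/ΔDBD HE2 samples were above both WT samples of 6.37 and 9.604, with a log2 fold change of 1.37 (SE 0.363, adjusted p = 0.0208). That call was lost without WT replicate 1 (1.08, 0.181), Sp1ΔDBD/ΔDBD replicate 1 (1.42, 0.0525) or Sp1ΔDBD/ΔDBD replicate 2 (1.33, 0.125), and without the 6 libraries it stood at 1.12 (adjusted p = 0.108). Col4a6 was not called against WT in any population and lay between 0 and 7.04 FPKM in the mutant samples.

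Col18a1 fell in the 3 later populations of Sp1ΔDBD/ΔDBD cells and in Sp3-/- HE1. Col18a1 in Sp1ΔDBD/ΔDBD cells had 119 and 93.4 FPKM in ESC, 20.04 and 29.6 in Flk1+ cells, 201 and 236 in HE1, then 184 and 167 in HE2 and 39.1 and 68.4 in progenitors. Col18a1 in Sp3-/- cells had 78.97 and 80.4 FPKM in ESC, 21.01 and 19.2 in Flk1+ cells, 251 and 249 in HE1, then 208 and 231 in HE2 and 103 and 109 in progenitors. No mutant HE1 or HE2 sample reached the lower WT sample of that population, and Sp3-/- progenitors overlapped the WT range of 101 and 121. In Sp1ΔDBD/ΔDBD cells the changes were -0.98 (SE 0.243, adjusted p = 0.0149) in HE1, -1.03 (SE 0.243, adjusted p = 0.0107) in HE2 and -1.10 (SE 0.243, adjusted p = 0.00765) in progenitors, and in Sp3-/- HE1 -0.78 (SE 0.243, adjusted p = 0.0452). All 4 calls held without the 6 libraries (adjusted p at most 0.0393). They were lost, in this order, without WT replicate 2 (-0.72, 0.143), Sp1ΔDBD/ΔDBD replicate 1 (-0.87, 0.0751) or Sp1ΔDBD/ΔDBD replicate 2 (-1.10, 0.0533), without WT replicate 2 (-0.68, 0.138) or Sp1ΔDBD/ΔDBD replicate 2 (-0.96, 0.0941), without WT replicate 2 (-0.97, 0.0634) or Sp1ΔDBD/ΔDBD replicate 1 (-0.70, 0.132) and without WT replicate 2 (-0.52, 0.295), Sp3-/- replicate 1 (-0.79, 0.1497) or Sp3-/- replicate 2 (-0.78, 0.191).

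Among the laminin alpha chains, Lama4 fell in Sp3-/- Flk1+ cells. Lama4 in Sp3-/- cells had 0.0231 and 0.0524 FPKM in ESC, 3.56 and 3.63 in Flk1+ cells, 25.8 and 24.6 in HE1, then 8.19 and 9.85 in HE2 and 1.16 and 1.41 in progenitors. Lama4 in Sp1ΔDBD/ΔDBD cells had 0.183 and 0.0756 FPKM in ESC, 6.01 and 9.67 in Flk1+ cells, 36.4 and 38.1 in HE1, then 17.8 and 9.38 in HE2 and 2.46 and 1.402 in progenitors. The Sp3-/- Flk1+ samples lay far under the WT samples of 13.8 and 18.4, the Sp1ΔDBD/ΔDBD samples between. Lama4 fell in Sp3-/- Flk1+ cells with a log2 fold change of -2.11 (SE 0.312, adjusted p = 0.000472) and in Sp3-/- progenitors with a log2 fold change of -1.38 (SE 0.312, adjusted p = 0.00967). The first held in every alternative run for it, with adjusted p at most 0.0164 without any 1 sample and at most 0.0294 otherwise; the second was lost without WT replicate 1 (-1.30, 0.0611) or Sp3-/- replicate 1 (-1.26, 0.09296). Stage markers also differed in the same Sp3-/- Flk1+ samples. The sum of 5 pluripotency genes was 94.9 and 97.6 FPKM against 41.3 and 31.9 in WT. Most of it was Pou5f1 (82.1 and 83.9 against 27.4 and 19.6). Nanog was lower (8.72 and 9.35 against 11.2 and 10.7) and Esrrb overlapped WT. The sum of 5 genes that mark Flk1+ mesoderm was 544 and 594 against 339 and 318. Of these, T (brachyury) was at 128 and 112 against 41.9 and 31.6. Kdr, which encodes Flk1, was at 171 and 189.5 against 192 and 209. Of the hemogenic endothelium genes, Cdh5 (5.42 and 4.85 against 1.62 and 2.09), Tek and Pecam1 were higher, and Kit and Tal1 lower. The part of these differences in the Lama4 value was not tested. In ESC, at under 0.5 FPKM, Lama4 was called lower in both mutants.

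Lama5 fell in Sp1ΔDBD/ΔDBD progenitors and was not called against WT elsewhere. Lama5 in Sp1ΔDBD/ΔDBD cells had 21.3 and 22.1 FPKM in ESC, 10.4 and 11.5 in Flk1+ cells, 11.2 and 15.6 in HE1, then 6.17 and 6.06 in HE2 and 2.48 and 4.25 in progenitors. Lama5 in Sp3-/- cells had 25.9 and 25.4 FPKM in ESC, 9.98 and 8.87 in Flk1+ cells, 19.6 and 14.4 in HE1, then 12.7 and 10.8 in HE2 and 5.92 and 5.48 in progenitors. The Sp1ΔDBD/ΔDBD progenitor samples were under the WT samples, whereas Sp3-/- progenitors reached them. The call (a log2 fold change of -0.75 (SE 0.197, adjusted p = 0.0215)) was lost without WT replicate 1 (-0.70, 0.118), WT replicate 2 (-0.80, 0.0617) or Sp1ΔDBD/ΔDBD replicate 1 (-0.37, 0.297), and without the 6 libraries the change was -0.32 (adjusted p = 0.357). Lama1 was not called: it had 14.8 and 14.1 FPKM in ESC, 4.09 and 3.896 in Flk1+ cells, 14.1 and 5.81 in HE1, then 5.61 and 3.104 in HE2 and 1.33 and 1.25 in progenitors in Sp1ΔDBD/ΔDBD and 10.2 and 10.2 FPKM in ESC, 4.399 and 4.01 in Flk1+ cells, 3.696 and 3.89 in HE1, then 2.91 and 3.01 in HE2 and 1.44 and 1.57 in progenitors in Sp3-/- cells.

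Of the beta and gamma chains, Lamc1 was called lower in 5 of the 10 comparisons against WT and Lamb1 in 2. Lamc1 in Sp1ΔDBD/ΔDBD cells had 62.5 and 67.1 FPKM in ESC, 14.5 and 17.6 in Flk1+ cells, 42.6 and 39.4 in HE1, then 22.3 and 19.7 in HE2 and 12.4 and 18.4 in progenitors. Lamc1 in Sp3-/- cells had 52.9 and 53.04 FPKM in ESC, 11.8 and 12.4 in Flk1+ cells, 29.95 and 29.6 in HE1, then 23.5 and 22.96 in HE2 and 17.9 and 19.1 in progenitors. From Flk1+ cells to progenitors every mutant sample of Lamc1 was under both WT samples of its population, and in ESC the Sp1ΔDBD/ΔDBD samples were above. The change was -0.73 (SE 0.158, adjusted p = 0.00546) in Sp3-/- Flk1+ cells, -0.87 (SE 0.158, adjusted p = 0.00194) in Sp3-/- HE1 and -0.56 (SE 0.158, adjusted p = 0.0312) in Sp3-/- progenitors. In Sp1ΔDBD/ΔDBD cells it was -0.51 (SE 0.158, adjusted p = 0.0496) in HE2 and -0.85 (SE 0.158, adjusted p = 0.00205) in progenitors. Of these, the Sp3-/- HE1 and Sp1ΔDBD/ΔDBD progenitor calls held without any 1 sample (adjusted p at most 0.0436 and 0.0459), and the Sp1ΔDBD/ΔDBD progenitor call was lost without the 6 libraries (-0.40, adjusted p = 0.0805). The other calls were lost in Sp3-/- Flk1+ cells without WT replicate 2 (-0.71, 0.0654) or Sp3-/- replicate 1 (-0.70, 0.0633), in Sp3-/- progenitors without WT replicate 1 (-0.40, 0.254), Sp3-/- replicate 1 (-0.52, 0.187) or Sp3-/- replicate 2 (-0.61, 0.0925) and in Sp1ΔDBD/ΔDBD HE2 without WT replicate 1 (-0.45, 0.2196), WT replicate 2 (-0.56, 0.0902), Sp1ΔDBD/ΔDBD replicate 1 (-0.59, 0.05704) or Sp1ΔDBD/ΔDBD replicate 2 (-0.42, 0.289).

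Lamb1 fell in Sp3-/- HE1 and in Sp1ΔDBD/ΔDBD progenitors. Lamb1 in Sp1ΔDBD/ΔDBD cells had 36.9 and 35.1 FPKM in ESC, 35.7 and 35.4 in Flk1+ cells, 61.2 and 56.9 in HE1, then 26.6 and 16.96 in HE2 and 7.26 and 6.71 in progenitors. Lamb1 in Sp3-/- cells had 28.4 and 27.01 FPKM in ESC, 39.3 and 37.1 in Flk1+ cells, 40.1 and 36.4 in HE1, then 22.9 and 22.6 in HE2 and 10.9 and 10.2 in progenitors. The mutant samples were under both WT samples in HE1 in both genotypes, and in progenitors in Sp1ΔDBD/ΔDBD cells. Lamb1 changed in Sp3-/- HE1 by -0.93 (SE 0.212, adjusted p = 0.00882) and in Sp1ΔDBD/ΔDBD progenitors by -0.90 (SE 0.212, adjusted p = 0.0111); both calls held without the 6 libraries, the first was lost without WT replicate 1 (-0.79, 0.0935) or Sp3-/- replicate 2 (-0.86, 0.0874) and the second without WT replicate 1 (-0.51, 0.192) or Sp1ΔDBD/ΔDBD replicate 2 (-0.85, 0.0533). Lamb2, which was not called against WT, had 7.12 and 5.002 FPKM in ESC, 7.37 and 7.999 in Flk1+ cells, 14.9 and 15.3 in HE1, then 8.07 and 9.23 in HE2 and 2.29 and 4.53 in progenitors in Sp1ΔDBD/ΔDBD and 6.23 and 6.36 FPKM in ESC, 7.08 and 6.98 in Flk1+ cells, 21.95 and 20.3 in HE1, then 10.1 and 10.2 in HE2 and 5.699 and 5.66 in progenitors in Sp3-/- cells. Lamb3, called higher in HE1 of both mutants and in Sp3-/- HE2, had no group mean above 1.41 FPKM.

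Of the fibrillar chains, Col1a1 and Col1a2 were not called against WT in any population with all 15 groups in the fit, though they were called in several alternatives. Col1a1 in Sp1ΔDBD/ΔDBD cells had 3.39 and 4.79 FPKM in ESC, 1.12 and 1.67 in Flk1+ cells, 4.73 and 0.144 in HE1, then 1.44 and 0.00217 in HE2 and 0.176 and 0.00816 in progenitors. Col1a1 in Sp3-/- cells had 1.09 and 3.64 FPKM in ESC, 0.9702 and 1.38 in Flk1+ cells, 3.07 and 1.86 in HE1, then 1.95 and 3.05 in HE2 and 0.982 and 2.295 in progenitors. Both mutants were under WT in Flk1+ cells, where the WT samples had 8.65 and 13.6, with log2 fold changes of -2.90 and -3.12. Neither was called in the fit that shares its spread with the HE1, HE2 and progenitor replicates (adjusted p = 0.331 and 0.199). Fitted on Flk1+ samples alone, both were called (adjusted p = 0.0383 and 0.0258). Col1a2 had 5.204 and 7.34 FPKM in ESC, 1.03 and 1.199 in Flk1+ cells, 24.9 and 1.25 in HE1, then 8.38 and 0.829 in HE2 and 2.41 and 1.05 in progenitors in Sp1ΔDBD/ΔDBD cells. Col1a2 in Sp3-/- cells had 1.66 and 4.54 FPKM in ESC, 0.867 and 1.23 in Flk1+ cells, 7.304 and 7.86 in HE1, then 4.18 and 5.71 in HE2 and 2.72 and 3.66 in progenitors. In Sp1ΔDBD/ΔDBD HE1 the replicates of Col1a1 stood at 4.73 and 0.144 FPKM against 94.98 and 6.08 in WT, without overlap, a change of -4.48 (SE 1.533, adjusted p = 0.0706). In Sp1ΔDBD/ΔDBD progenitors the change was -4.44 (SE 1.533, adjusted p = 0.0809) for Col1a1 and -3.43 (SE 1.076, adjusted p = 0.05301) for Col1a2, again without overlap. With the replicate number as a block, these 3 changes were called (adjusted p = 0.0255, 0.0286 and 0.0168); with a pseudocount of 1, Col1a1 in HE1 and Col1a2 in progenitors were (0.0478 and 0.0496). In each population fitted alone, Col1a1 was not called in HE1 (0.243) or progenitors (0.203). Without the 6 libraries, Col1a2 was called lower in Sp3-/- progenitors (-2.08, adjusted p = 0.0119), and Col1a1 and Col1a2 were called lower in Sp1ΔDBD/ΔDBD HE1, HE2 and progenitors, a count that rests on 1 WT and 1 Sp1ΔDBD/ΔDBD sample in each. Col1a1 lies on chromosome 11, where the median log2 change of all genes was between -0.34 and -0.12 in the 10 comparisons against WT.

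Col5a1 and Col5a2 were above 10 FPKM in every WT and Sp1ΔDBD/ΔDBD HE1 sample, and between 3.88 and 11.1 in Sp3-/- HE1. Col5a1 in Sp1ΔDBD/ΔDBD cells had 3.41 and 3.702 FPKM in ESC, 12.3 and 9.26 in Flk1+ cells, 37.5 and 18.1 in HE1, then 25.2 and 13.8 in HE2 and 7.37 and 8.65 in progenitors. Col5a1 in Sp3-/- cells had 2.03 and 3.11 FPKM in ESC, 6.59 and 6.195 in Flk1+ cells, 11.1 and 7.37 in HE1, then 10.8 and 10.1 in HE2 and 5.603 and 5.09 in progenitors. Col5a1 fell in Sp3-/- HE1 with a log2 fold change of -1.68 (SE 0.505, adjusted p = 0.0384), and that call rested on WT replicate 1: it was lost without WT replicate 1 (-0.75, 0.484), Sp3-/- replicate 1 (-1.97, 0.0752) or Sp3-/- replicate 2 (-1.38, 0.251), and without the 6 libraries it stood at -0.75 (adjusted p = 0.173). Col5a2 had 4.92 and 6.598 FPKM in ESC, 1.196 and 3.79 in Flk1+ cells, 24.6 and 16.2 in HE1, then 7.28 and 3.35 in HE2 and 1.14 and 0.357 in progenitors in Sp1ΔDBD/ΔDBD and 1.25 and 3.54 FPKM in ESC, 0.288 and 1.01 in Flk1+ cells, 3.88 and 8.13 in HE1, then 1.29 and 3.63 in HE2 and 0.0234 and 1.08 in progenitors in Sp3-/- cells. Col3a1 had 1.45 and 1.03 FPKM in ESC, 0.0166 and 0 in Flk1+ cells, 12.1 and 7.79 in HE1, then 2.48 and 0.653 in HE2 and 0.562 and 0.117 in progenitors in Sp1ΔDBD/ΔDBD and 0.144 and 0.532 FPKM in ESC, 0 and 0 in Flk1+ cells, 4.74 and 4.48 in HE1, then 2.22 and 1.697 in HE2 and 0.766 and 0.908 in progenitors in Sp3-/- cells. Neither Col5a2 nor Col3a1 was called against WT. The 11 fibrillar members had a median log2 change of 1.04 in Sp1ΔDBD/ΔDBD ESC, and the 1 member called there, Lama4, was not among them; 4 members, Col2a1, Col5a2, Col5a3 and Col6a1, were called there with a pseudocount of 1 in place of 0.1.

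Col14a1 rose in Flk1+ cells of both mutants, and Col13a1 in Sp3-/- ESC. Col14a1 in Sp1ΔDBD/ΔDBD cells had 0.00692 and 0.0412 FPKM in ESC, 8.09 and 9.89 in Flk1+ cells, 0.177 and 0.245 in HE1, then 0.0427 and 0.108 in HE2 and 0.187 and 0.116 in progenitors. Col14a1 in Sp3-/- cells had 0.02104 and 0 FPKM in ESC, 6.502 and 6.01 in Flk1+ cells, 0.0882 and 0.187 in HE1, then 0.113 and 0.302 in HE2 and 0.0234 and 0.137 in progenitors. The 4 mutant Flk1+ samples had at least 6.01 FPKM and the WT samples at most 2.55. Col14a1 rose with a log2 fold change of 2.20 (SE 0.393, adjusted p = 0.00191) in Sp1ΔDBD/ΔDBD and 1.69 (SE 0.393, adjusted p = 0.00872) in Sp3-/- Flk1+ cells, calls that held in the 6 samples alone (adjusted p = 0.0489 and 0.0447) and were lost without WT replicate 2 (1.77, 0.0628) and without WT replicate 2 (1.26, 0.165) or Sp3-/- replicate 1 (1.63, 0.0823) respectively. Col13a1 in Sp1ΔDBD/ΔDBD cells had 2.18 and 1.58 FPKM in ESC, 11.5 and 9.34 in Flk1+ cells, 0.553 and 1.398 in HE1, then 0.343 and 0.00217 in HE2 and 0.00595 and 0.00816 in progenitors. Col13a1 in Sp3-/- cells had 2.99 and 3.37 FPKM in ESC, 16.8 and 21.8 in Flk1+ cells, 1.89 and 2.55 in HE1, then 0.343 and 0.678 in HE2 and 0.0234 and 0.00572 in progenitors. Col13a1 rose in Sp3-/- ESC with a log2 fold change of 2.08 (SE 0.636, adjusted p = 0.0415), a call lost without WT replicate 1 (2.07, 0.153), WT replicate 2 (2.09, 0.131), Sp3-/- replicate 1 (2.16, 0.152) or Sp3-/- replicate 2 (1.99, 0.188) and after GC and length correction (adjusted p = 0.119). In Sp3-/- Flk1+ cells, where all samples were above WT, its change of 1.76 was not called (adjusted p = 0.0765) but was in Flk1+ samples alone (0.0267).

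Col23a1 fell in HE1 of both mutants. Col23a1 in Sp1ΔDBD/ΔDBD cells had 0.0415 and 0.0477 FPKM in ESC, 8.27 and 8.64 in Flk1+ cells, 1.38 and 3.23 in HE1, then 1.41 and 2.62 in HE2 and 1.06 and 2.72 in progenitors. Col23a1 in Sp3-/- cells had 0.0885 and 0.0607 FPKM in ESC, 6.97 and 8.19 in Flk1+ cells, 2.04 and 2.11 in HE1, then 1.94 and 2.36 in HE2 and 1.36 and 1.59 in progenitors. The mutant samples were under both WT samples in HE1, HE2 and progenitors, and above both in Flk1+ cells. The changes in HE1 were -1.50 (SE 0.395, adjusted p = 0.0217) in Sp1ΔDBD/ΔDBD and -1.53 (SE 0.395, adjusted p = 0.0184) in Sp3-/- cells, and -1.32 (SE 0.395, adjusted p = 0.0436) in Sp3-/- progenitors. They held without the 6 libraries (adjusted p at most 0.0476) and were lost, in this order, without WT replicate 2 (-1.24, 0.136) or Sp1ΔDBD/ΔDBD replicate 1 (-0.91, 0.193), without WT replicate 2 (-1.27, 0.1196), Sp3-/- replicate 1 (-1.50, 0.09098) or Sp3-/- replicate 2 (-1.55, 0.104) and without WT replicate 1 (-1.14, 0.203), WT replicate 2 (-1.50, 0.0853), Sp3-/- replicate 1 (-1.22, 0.2203) or Sp3-/- replicate 2 (-1.42, 0.117). Col23a1 is also on chromosome 11. Col9a2 was highest in Sp3-/- ESC: it had 10.02 and 10.2 FPKM in ESC, 0.272 and 0.112 in Flk1+ cells, 0.158 and 0.5205 in HE1, then 0.141 and 0.44005 in HE2 and 0.0234 and 0.219 in progenitors there and later, and 3.69 and 2.596 FPKM in ESC, 0.0793 and 0.0403 in Flk1+ cells, 0.153 and 0.258 in HE1, then 0.0975 and 0.152 in HE2 and 0.337 and 0.00816 in progenitors in Sp1ΔDBD/ΔDBD cells, with no call. The other 14 calls were of members at or under 3 FPKM: Col9a1 lower and Col19a1 higher in Flk1+ cells of both mutants, Lama4 in ESC and Lamb3 as above, Col11a2 higher in Sp1ΔDBD/ΔDBD HE2, Col5a3 higher in Sp3-/- ESC, Col6a1 lower in Sp3-/- Flk1+ cells, Col16a1 lower in Sp3-/- HE1 and Col11a1 lower in Sp3-/- progenitors. In the last, Col11a1 in Sp3-/- replicate 1 was at the lowest value of its library, 0.0234 FPKM, which 1660 genes shared.

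The mutants were also tested directly against each other. In Sp3-/- against Sp1ΔDBD/ΔDBD cells, 4 of 40 members were called in ESC (all genes 9.67%), 1 in Flk1+ cells (7.39%), 2 in HE1 (13.6%), 2 in HE2 (15.9%) and 4 in progenitors (11.6%). Without the 6 libraries the counts in HE1, HE2 and progenitors were higher, in a fit that left 1 Sp1ΔDBD/ΔDBD sample in each. The share of all genes called in that fit is not given, so the percentages above are no background for it. Col4a1 and Col4a2 were lower in Sp3-/- ESC, by -0.97 and -1.23 (adjusted p = 0.0187 and 0.0102), and Col4a1 was lower in Sp3-/- HE1, by -0.82 (adjusted p = 0.0333). Lama4 was lower in Sp3-/- Flk1+ cells (-1.06, adjusted p = 0.0434) and Col11a1 in Sp3-/- HE1 (-2.68, adjusted p = 0.00260). Higher in Sp3-/- cells were Lama5 in HE2 and progenitors (0.93 and 0.79, adjusted p = 0.00358 and 0.0136), and Col18a1 and Lamb2 in progenitors (1.03 and 0.80, adjusted p = 0.00964 and 0.0459). The other calls, Col4a5 and Col10a1 in ESC and Col11a1 in HE2 and progenitors, were of values at or under 3 FPKM. These are differences between the 2 mutants, with no WT sample in the contrast.

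A step of differentiation was compared between a mutant and WT by an interaction term. For Flk1+ cells to HE1, 1 member differed in Sp1ΔDBD/ΔDBD (all genes 1.53%) and 3 in Sp3-/- cells (4.02%). The rise of Col4a1 into HE1 was smaller in Sp3-/- cells by -1.33 on the log2 scale (SE 0.352, adjusted p = 0.0387). The others were Col9a1 in both mutants and Col19a1 in Sp3-/- cells, at most 3.04 FPKM in any sample; both genes were at the lowest value of the library in the HE1 samples compared, so their terms restate the Flk1+ difference. For HE1 to HE2, 0 members were called by limma in Sp1ΔDBD/ΔDBD (all genes 0.00688%) and 0 in Sp3-/- cells (0.0%). By unadjusted p under 0.05, 0 and 6 members differed, and the share of all genes under that p is not given.

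Among the genes that make collagen, Crtap and P4hb were called lower in both mutants and Plod1 in Sp1ΔDBD/ΔDBD cells. Of 25 biosynthesis genes in the table (of 32 listed), which modify, fold, process and crosslink the chains, 3 fell in Sp1ΔDBD/ΔDBD ESC, 3 in Flk1+ cells, 4 in HE1, 5 in HE2 and 4 in progenitors, and 1, 1, 0, 1 and 0 rose. Over all genes, 3.26%, 2.62%, 4.35%, 4.97% and 5.04% fell and 2.8%, 2.92%, 5.69%, 4.7% and 3.75% rose in these comparisons. In Sp3-/- cells 1, 2, 6, 3 and 2 of the 25 fell and 0, 0, 1, 1 and 0 rose in the same order, where 5.91%, 5.94%, 4.87%, 6.84% and 4.77% of all genes fell and 5.4%, 6.69%, 6.02%, 6.97% and 3.88% rose. The median log2 change of the 25 lay between -0.51 and 0.10 over the 10 comparisons, against -0.02 to 0.05 for all genes, and whether the list differed from other genes was not tested. Crtap, a subunit of the prolyl 3-hydroxylation complex, had 2.54 and 2.42 FPKM in Sp1ΔDBD/ΔDBD Flk1+ cells and 10.2 and 9.48 in WT, a change of -1.95 (SE 0.236, adjusted p = 4.17e-05), and fell by 1.56 in progenitors. In Sp3-/- HE2 it was also called lower (-0.79, limma adjusted p = 0.0326). Plod1, a lysyl hydroxylase, had 3.598 and 3.602 FPKM in Sp1ΔDBD/ΔDBD progenitors against 8.11 and 9.73 in WT (-1.28, adjusted p = 0.000101). P4hb, the beta subunit of prolyl 4-hydroxylase, was at 262 and 261 FPKM in Sp3-/- HE1 against 447 and 526 in WT (-0.89, adjusted p = 0.000585), and fell in Sp3-/- ESC, HE2 and progenitors too (-0.86, -0.69 and -0.63). In Sp1ΔDBD/ΔDBD ESC this subunit was called lower as well (-0.60, limma adjusted p = 0.0139). P4ha2, an alpha subunit of the same enzyme, had 2.66 and 1.47 FPKM in Sp3-/- HE1 against 15.6 and 11.3 in WT. P4hb and P4ha2 lie on chromosome 11.

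Of 17 other basement membrane genes in the table (of 18 listed), 0, 0, 3, 1 and 4 fell from ESC to progenitors in Sp1ΔDBD/ΔDBD and 1, 1, 1, 0 and 1 in Sp3-/- cells, and 1 rose, in Sp3-/- progenitors. The shares of all genes that fell, given above, were between 2.62% and 5.04% in Sp1ΔDBD/ΔDBD and between 4.77% and 6.84% in Sp3-/- cells. In Sp3-/- progenitors 3.88% of all genes rose. Nid1 (nidogen 1), which links laminin to collagen IV, had 3.05 and 1.16 FPKM in Sp1ΔDBD/ΔDBD and 3.21 and 3.18 in Sp3-/- progenitors, against 21.04 and 7.17 in WT. Its changes were -2.64 (SE 0.464, adjusted p = 0.00140) and -1.91 (SE 0.464, adjusted p = 0.0150). Hspg2 (perlecan) had 3.32 and 4.79 FPKM in Sp1ΔDBD/ΔDBD progenitors against 19.9 and 8.88 in WT (-1.71, adjusted p = 0.000651). Both WT progenitor samples of Nid1 and Hspg2 were above every mutant sample named here, with WT replicate 1 more than 2-fold above replicate 2.

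Of 13 receptor genes in the table (of 15 listed), 0 to 2 fell in each Sp1ΔDBD/ΔDBD population and 0, 0, 3, 4 and 2 fell in Sp3-/- cells, from ESC to progenitors. In each mutant 1 rose in 2 of the 5 populations. In Sp3-/- HE1, HE2 and progenitors, 4.87%, 6.84% and 4.77% of all genes fell. In the Sp1ΔDBD/ΔDBD populations between 2.62% and 5.04% of all genes fell and between 2.8% and 5.69% rose. Between 3.88% and 6.97% rose in the Sp3-/- populations. Itga6, the laminin-binding integrin α6, had 7.62 and 6.63 FPKM in Sp3-/- HE2 against 23.2 and 25.3 in WT (-1.76, SE 0.243, adjusted p = 0.000236), and fell in Sp3-/- HE1 and progenitors (-1.23 and -0.88). It rose in Sp1ΔDBD/ΔDBD Flk1+ cells, at 30.8 and 27.7 against 14.9 and 15.6 (0.94, adjusted p = 0.0272). Itga1, a subunit of a collagen receptor, had 3.02 and 2.88 FPKM in Sp3-/- HE2 and 4.91 and 4.36 in Sp1ΔDBD/ΔDBD HE2, against 13.1 and 12.1 in WT (-2.06 and -1.42).

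Of the 11 proteases and inhibitors tested (12 in the table, 14 listed), 0, 1, 2, 2 and 5 fell and 1, 1, 0, 1 and 1 rose from ESC to progenitors in Sp1ΔDBD/ΔDBD cells, where 5.04% of all genes fell in progenitors and at most 4.97% in the other populations. Mmp2 (gelatinase A), a protease that cleaves collagen IV, fell in 4 of the 5 populations. It had 20.001 and 17.6 FPKM in Sp1ΔDBD/ΔDBD HE1 against 69.9 and 74.8 in WT (-1.94, SE 0.284, adjusted p = 0.000209). In Flk1+ cells, HE2 and progenitors its changes were -1.76, -2.24 and -1.98. Reck, a membrane-bound inhibitor of such proteases, rose in Sp1ΔDBD/ΔDBD Flk1+ cells, HE2 and progenitors (0.71, 1.22 and 0.98). In Sp3-/- cells 0, 2, 2, 1 and 1 of these genes fell and 1, 2, 0, 0 and 1 rose. Mmp2 was among those that fell in Flk1+ cells and HE2 (-1.47 and -0.98). Over all genes, between 4.77% and 6.84% fell and between 3.88% and 6.97% rose in the Sp3-/- populations, and between 2.8% and 5.69% rose in the Sp1ΔDBD/ΔDBD populations.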

How the data were processed

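RNA was sequenced from stranded, ribosomal RNA-depleted libraries of 15 groups with 2 biological replicates each. The authors trimmed reads with Trimmomatic, aligned them to mm10 with HISAT2 2.1.0, estimated transcript abundance with StringTie 1.3.3, removed genes that never exceeded 1 FPKM and deposited quantile-normalised FPKM of 14685 genes; the annotation is not given in the sources used here. Quantile normalisation gives every sample nearly the same distribution (median 7.19 FPKM), so a change shared by most genes and the read depth cannot be seen, and a tied lowest value stands for 0 in several libraries. Whether counting used strand is not stated, so overlapping antisense genes can share signal.

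The deposited FPKM values were analysed as log2(FPKM + 0.1) with limma 3.58.1 in R 4.3.3 (trend, 15 groups in one fit, 15 residual and 3.92 prior degrees of freedom, two-sided, Benjamini-Hochberg within each comparison over the 14525 genes above 1 FPKM, threshold 0.05); tables and plots were made with Python 3.11.15, pandas 2.3.3 and matplotlib 3.10.9. The 23 comparisons were each mutant against WT in each population, the 4 steps in WT, 4 interactions and the mutants against each other, and p-values measure the spread between these replicates. The script was tested on simulated data.

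Alternatives were a pseudocount of 1, no filter on low values, the replicate number as a block, fits on the compared populations alone, a correction for GC content and length, leaving out each replicate and, added after the data were seen, leaving out 6 libraries. Gene positions and lengths came from GENCODE M21, which matched 14559 symbols. Values per sample were printed for members with a group mean of 10 FPKM or more and for members called against WT with a mean above 3 FPKM, and statistics for the latter; of the other gene lists, a gene was named if called with a mean above 3 FPKM and among the 3 largest changes of its list. Names outside this rule were chosen after their values were seen: the low members in the opening of each class, Col1a1 and Col13a1 in Flk1+ cells, and the 4 members called with a pseudocount of 1. The members and lists were chosen with earlier results of these data known. Collagen and laminin chains that are not in the table (Col4a3 and Lama2 among them) were not analysed here, and 1 member that entered the counts is not reported here by itself.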

Additional observations from a re-analysis of the deposited data

Results flagged for a closer look

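The step from Flk1+ cells to HE1 differed between a mutant and WT for 4 combinations of a mutant and a gene by limma's interaction term. Col4a1 rose less in Sp3-/- cells, with a difference of -1.33 (log2 scale, adjusted p = 0.0387): its levels went from 67.2 and 63.97 FPKM to 700.0 and 850.2 in WT and from 83.8 and 83.1 to 459 and 331 in Sp3-/-. Col9a1 fell less in both mutants, with differences of 1.99 in Sp1ΔDBD/ΔDBD (adjusted p = 0.00878) and 1.56 in Sp3-/- cells (adjusted p = 0.0195), from Flk1+ levels of 0.574 and 0.829 and 1.13 and 0.886 against 2.95 and 3.04 in WT to at most 0.00960 in HE1 in all genotypes. Col19a1 fell more in Sp3-/- cells, by -1.88 (adjusted p = 0.0239), from 1.11 and 1.18 against 0.359 and 0.127 in WT. In HE1, Col9a1 was at the lowest value of the library in all 6 samples, and Col19a1 in both WT and both Sp3-/- samples, so for both genes the term restates the difference in Flk1+ cells. With 2 samples a group, single samples far from the others were not looked for.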

How the results depend on the processing

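No value reversed its direction among the 29 log2 fold changes of members called against WT above 3 FPKM. Their calls all held with a pseudocount of 1 and with no filter on low values, 28 held with a GC content and length correction, 19 of 24 without the 6 libraries, 54 of 116 without 1 sample, and 6 in fits on the compared populations alone, where the spread is estimated from fewer samples. Depth was unknown, and 2 samples a group limit every call.

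The counts of called members changed as follows, each given beside the count in the report, and the cause was not tested. The share of all genes called under each alternative is not given in this section. Whether the members changed more than all genes did cannot be read from these counts. With a pseudocount of 1 they were 4 against 1 in Sp1ΔDBD/ΔDBD ESC, 5 against 3 in Flk1+ cells, 6 against 3 in HE1, 8 against 5 in HE2, 13 against 8 in Sp3-/- HE1, 4 against 1 and 7 against 3 for the Flk1+ to HE1 interactions of Sp1ΔDBD/ΔDBD and Sp3-/-, and 3 against 1 in Flk1+ cells and 6 against 2 in HE1 for Sp3-/- against Sp1ΔDBD/ΔDBD. With the compared populations alone they were 0 against 1, 0 against 3, 0 against 5 and 1 against 6 in Sp1ΔDBD/ΔDBD ESC, HE1, HE2 and progenitors, and 14 against 6, 0 against 8, 0 against 2 and 0 against 6 in Sp3-/- Flk1+ cells, HE1, HE2 and progenitors. For the same interactions they were 2 against 1 and 5 against 3, and between the mutants 1 against 4, 0 against 2, 0 against 2 and 0 against 4 in ESC, HE1, HE2 and progenitors. With the GC and length correction they were 2 against 1 in Sp1ΔDBD/ΔDBD ESC, 8 against 5 in HE2, 4 against 2 in Sp3-/- HE2, and between the mutants 0 against 1 in Flk1+ cells and 2 against 4 in progenitors. Without the 6 libraries, with lone samples assumed to vary like the other groups, they were 5 against 3 in Sp1ΔDBD/ΔDBD HE1, 6 against 2 in Sp3-/- HE2, 4 against 1 and 7 against 3 for the interactions, and 8 against 2, 7 against 2 and 8 against 4 between the mutants in HE1, HE2 and progenitors.

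Leaving out 1 replicate at a time, with the spread pooled over all groups, gave 0 to 1 calls in Sp1ΔDBD/ΔDBD ESC, 1 to 3 in Flk1+ cells, 1 to 6 in HE1 and 0 to 3 in HE2. In Sp3-/- cells it gave 1 to 2 in ESC, 3 to 6 in Flk1+ cells, 1 to 7 in HE1, 0 to 3 in HE2 and 0 to 5 in progenitors. The Flk1+ to HE1 interactions gave 1 to 2 and 0 to 5, and the mutants against each other 0 to 4 in ESC, 0 to 1 in Flk1+ cells, 1 to 2 in HE1, 1 to 2 in HE2 and 0 to 6 in progenitors.

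Replicates 1 and 2 share only a number between genotypes. Deviations of same-numbered samples correlated at 0.210 to 0.513 between WT and Sp1ΔDBD/ΔDBD over 9290 genes. Between WT and Sp3-/- they correlated at 0.214 in HE1, near the lower Sp1ΔDBD/ΔDBD values. In the other populations they correlated at 0.0309 to 0.0823, so there the pairing is not shown for Sp3-/-. Among HE1, HE2 and progenitors of 1 genotype they correlated at 0.393 to 0.471 in WT. In Sp1ΔDBD/ΔDBD cells the range was 0.489 to 0.684 and in Sp3-/- cells 0.0411 to 0.229. Calls of 1 gene across these populations are therefore not separate findings. With the replicate number as a block, 27 of the 29 calls held, and Col4a1 and Lamc1 in Sp1ΔDBD/ΔDBD HE2 did not. The block gave 3 calls against 1 in Sp1ΔDBD/ΔDBD ESC, 6 against 3 in HE1, 13 against 8 in Sp3-/- HE1, 4 against 2 in Sp3-/- HE2, and 2 against 1 and 6 against 3 for the interactions. A replicate block within each genotype gave 24 against 15 from HE1 to HE2 and 12 against 6 from HE2 to progenitors in WT, and 1 against 0 for the HE1 to HE2 interaction of Sp3-/-.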

Other observations

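Chains of 1 trimer did not keep 1 ratio through differentiation. The ratio of Col4a1 to Col4a2 FPKM was highest in ESC, where Col4a2 lay between 1.28 and 4.504 FPKM over the 6 samples, and its ranges in Flk1+ cells and HE1 did not overlap. The minor pair behaved unlike the major pair in Sp1ΔDBD/ΔDBD HE2: Col4a5 was at 19.8 and 21.04 FPKM against 6.37 and 9.604 in WT and Col4a6 at 3.87 and 3.75 against 1.399 and 2.25, while Col4a1 was at 202 and 112 against 224 and 305. Col4a6 was not called there. In Sp3-/- HE2, both Col4a5 samples were also above both WT samples, while Col4a1 was lower, with means of 143 against 265 FPKM in WT. In Sp1ΔDBD/ΔDBD HE1, Col4a5 was above both WT samples too, and Col4a1 overlapped WT. The difference between the pairs was not tested.

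The floor of the table differed between libraries. The lowest value was 0 in 14 of 30 libraries and reached 0.0234 FPKM in replicate 1 of Sp3-/- progenitors, where 16 of 41 members sat on it, among them Col5a2, which was at 1.08 FPKM in replicate 2.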
